A study of Mus musculus with 14 samples.

Results

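The comparison described here follows cells that received a Fezf2 expression vector, from 24 h to 48 h after electroporation. Its members are the 7 arrays labelled Fezf2GFP out of 14 in the series, 3 taken at 24 h and 4 at 48 h, read over every probe set that was paired with 1 gene symbol and lay above a log2 level of 4 on at least 3 of the 14 arrays. That rule kept 17407 of 45037 probe sets, and 10295 genes were tested, each through the 1 probe set of highest mean. The embryos were of the CD1 mouse strain, DNA was injected into the lateral ventricle at E14.5 and electroporated into the cells that line it, and GFP-positive cells were sorted by FACS into a preservative. In their labels the 2 Fezf2GFP groups differ in the time of purification only. A Fezf2GFP cell carries both Fezf2 and GFP from the vector. The CtrlGFP arrays (3 at 24 h, 4 at 48 h), from embryos given a GFP vector at the same stage, were set beside them. The labels do not name the promoter that drives the vectors, and they do not say whether embryos or litters were pooled for an array. Nor do they say that each array had its own litter, so the p-values measure only how far these arrays differ, and some of that spread may be technical.

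Fezf2 is a zinc finger transcription factor of the early forebrain that is needed for corticospinal and other subcerebral projection neurons to form. Progenitors of the embryonic neocortex line the ventricle as radial glia, divide there, and give rise to intermediate progenitors and neurons. Newborn neurons leave the cell cycle, switch off proneural factors after a short time, and begin to make neuronal cytoskeleton, guidance receptors, ion channels and synaptic proteins while they migrate. A DNA construct delivered into these cells marks a cohort, so cohorts marked at the same stage are read at a younger and an older age. Series text states that the injection stage is one at which upper-layer callosal neurons are mainly produced, and that forced Fezf2 redirects such progenitors towards corticofugal neurons. The comparison below asks what differs between the times in cells that carry the Fezf2 vector.

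Values are deposited log2 levels, so a difference of 1 is a doubling, and a level of 4 or less is called dim here. Array medians over all probe sets lay between 3.26 and 3.31 on the 7 Fezf2GFP arrays. Correlations across the tested genes were 0.982 to 0.991 within the 24 h arrays, 0.952 to 0.985 within the 48 h arrays and 0.929 to 0.963 between the times. The 1 probe set for Fezf2 stood at 9.44 ± 0.11 (SD, n = 3) at 24 h and 9.33 ± 0.70 (SD, n = 4) at 48 h with the Fezf2GFP label, against 11.30 and 10.15 with the CtrlGFP label. It is not higher with the Fezf2GFP label at either time, so it does not check the labels, and it was not tested whether the vector's own transcript is one that it can detect. Cortical markers were present throughout: the 8 cortical identity genes tested averaged 11.38 to 11.68 at 24 h and 11.00 to 11.72 at 48 h.

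Some Fezf2GFP arrays carried more signal of other cell types than the rest. The 24 h array of replicate 1 had the highest level of GABAergic and subpallial genes, with Gad1, the enzyme that makes GABA, at 9.77 against 5.09 and 7.57 on the other 24 h arrays, and the homeobox factor Dlx1 at 8.3 against 3.2 and 6.1. Over the 14 markers of that list measured, the log2 of the summed level ranged from 8.66 to 11.30 at 24 h and from 10.12 to 11.11 at 48 h, 0 of the 11 tested members passed between the times, and Dlx6, Gsx2 and Nkx2-1 were dim on all 7 arrays. The 24 h array of replicate 3 stood alone for the embryonic globin Hbb-y (9.96, against 4.86 and 3.06), and it shared a high level of the choroid plexus gene Ttr (9.95) with replicate 3 at 48 h (8.32). The log2 summed level of the 7 erythroid markers measured was 6.37 to 10.07 at 24 h and 6.31 to 7.27 at 48 h, and that of the 11 markers of meninges and choroid plexus was 7.72 to 10.20 and 7.34 to 8.97. Of the microglial markers 12 of 14 failed the filter on dim probe sets, among them Aif1, Cx3cr1 and Csf1r, and so did 9 of 14 endothelial and pericyte markers, among them Pecam1, Cdh5 and Kdr. Summed log2 levels of these lists were 6.93 to 8.41 and 7.50 to 9.09 for microglia, and 7.96 to 10.36 and 9.15 to 10.29 for endothelium and pericytes, at 24 h and 48 h respectively. No tested member of these 4 lists passed between the times. The tested endothelial and pericyte genes had a median log2 fold change of 1.15, led by Rgs5 (1.38), Cldn5 (1.35) and Pdgfrb (1.15), and Pdgfrb, a receptor of pericytes, stood at 10.03, 6.77 and 7.45 at 24 h and at 8.65 to 9.88 at 48 h. Of these 5 genes 4 passed as higher with array weights, 2 without the 24 h array of replicate 1 and 1 without the 48 h array of replicate 1. Their part in the results below was not tested. In sorted cells measured in bulk, fewer cells of a type and less RNA per cell cannot be told apart.

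Between 24 h and 48 h in the Fezf2GFP cells all 30 tested mitosis genes fell, with 8 of 15 interferon genes and 6 of 15 neurogenic genes. Among genes of neurons, 8 of 24 for cytoskeleton and RNA binding, 7 of 20 for synaptic vesicles, 7 of 18 for ion channels and 7 of 26 for axon guidance rose, and most members of these 4 lists did not pass. In limma's test 1241 of 10295 genes passed at a Benjamini-Hochberg adjusted p of at most 0.05, which is 12.1% of the genes tested, with 657 higher at 48 h (6.38%) and 584 lower (5.67%). Among these, 446 rose and 419 fell by more than 2-fold, and 125 rose and 82 fell by more than 4-fold. Over all genes tested the median fold change was -0.01 on the log2 scale. Every adjusted p given below comes from limma's test over all genes. The arrays of the 2 times did not overlap for 1195 of the 1241 genes, beside 26.2% of all genes tested. Means lay above 4 at both times for 1151 of them, while 34 rising genes were dim on every 24 h array and 24 falling genes on every 48 h array. A gene measured above the dim level at only 1 of the times could enter the test through that time alone. Tested one by one, 1525 of the 17407 probe sets passed (8.76%). For 460 of the passing genes other probe sets had also met the filter on level. Of 647 such probe sets 617 (95.4%) changed with the same sign. They were read on the same arrays for genes chosen for passing, so this share is a description and no independent check. The count depended on single arrays, most on replicates 2 and 3 at 24 h, a time with 3 arrays. Without replicate 2 at 24 h, 670 genes passed (327 higher, 343 lower), without replicate 3, 643 passed (317 and 326), and without replicate 1, 982 passed (584 and 398). Without 1 of the 48 h arrays between 915 (replicate 3) and 1324 (replicate 4) passed. Calls made in all 7 fits that leave out a Fezf2GFP array number 551, or 44.4% of the 1241.

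**Figure D1:**
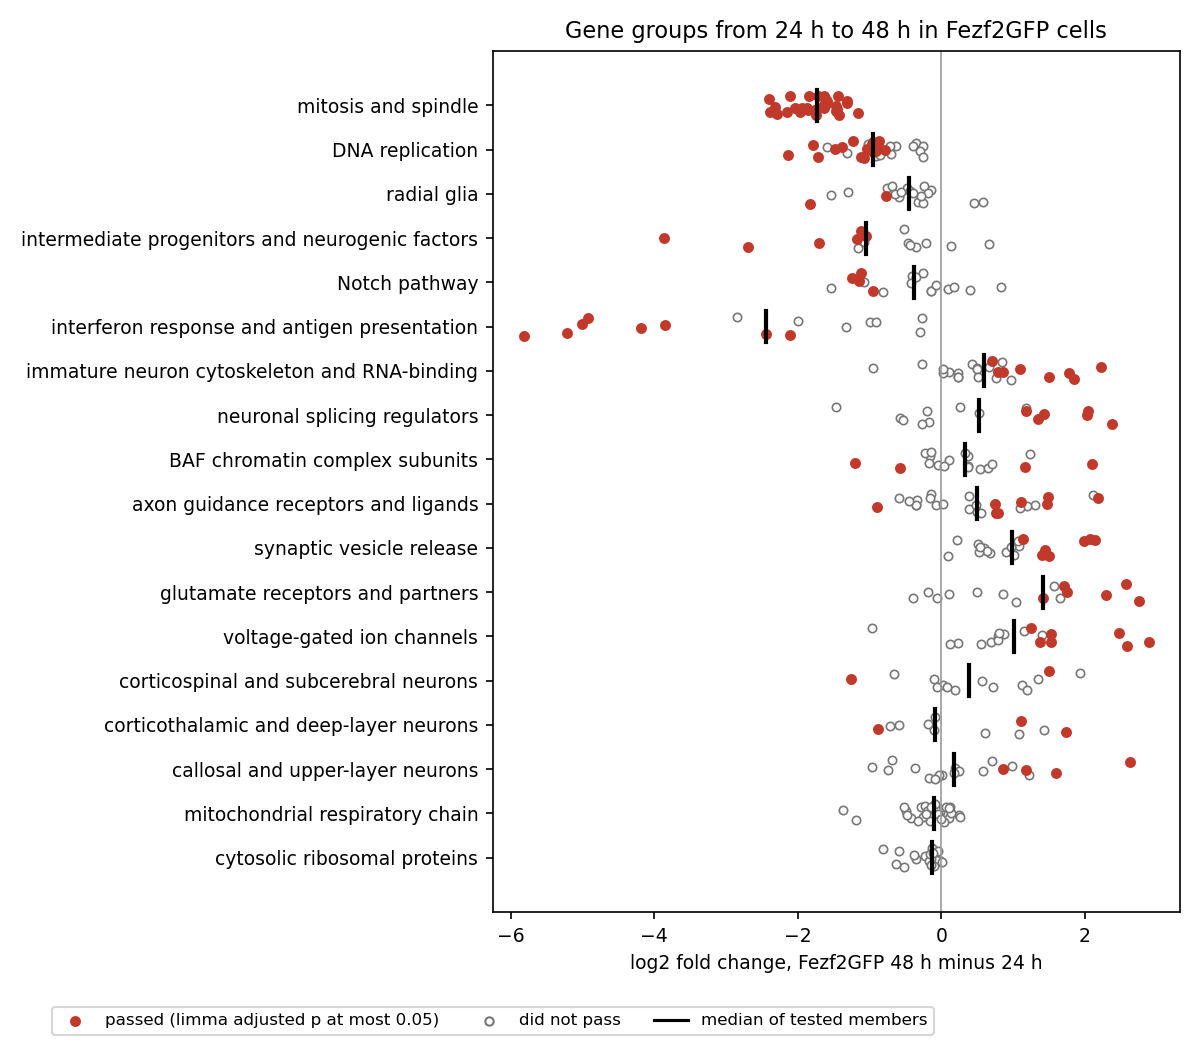
Log2 fold change from 24 h to 48 h in Fezf2GFP cells (x axis) for the tested genes of 18 lists (y axis). Red points passed (adjusted p at most 0.05), open points did not, black bars are medians over tested members, and vertical scatter within a list has no meaning. All 30 mitosis genes lie to the left at -2.41 to -1.17, all 20 synaptic vesicle genes lie to the right at 0.09 to 2.15, and the ribosomal and respiratory lists have no red points.

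Genes of mitosis fell as a block. All 30 tested genes of the mitosis and spindle list were lower at 48 h and all 30 passed, beside 5.67% of all genes tested that passed in that direction; their median log2 fold change was -1.73. Averaged over the list, the 24 h arrays stood at 11.06, 11.21 and 11.34 and the 48 h arrays at 9.31, 9.61, 9.02 and 9.82, so no array of 1 time reached the range of the other. Mki67, which encodes the proliferation antigen Ki-67, stood at 13.37, 13.56 and 13.61 at 24 h and at 11.47, 11.92, 11.71 and 12.39 at 48 h. Its log2 change was -1.64 (SE 0.25, adjusted p = 0.00133). The transcript was still far above the dim level at 48 h. Aurka, a kinase of centrosomes and the spindle, went from 9.06, 9.06 and 9.35 to 7.14, 6.98, 6.26 and 7.07, a change of -2.30 (SE 0.33, adjusted p = 0.000934). Cenpf, a kinetochore protein, fell by 1.85 (log2 scale, SE 0.22, adjusted p = 0.000334), Bub1b, a spindle checkpoint kinase, by 1.76 (SE 0.23, adjusted p = 0.000581), and the chromokinesin Kif4 by 1.64 (SE 0.22, adjusted p = 0.000582). The count was lowest without the 24 h array of replicate 2 or of replicate 3, at 26 of 30 in each case.

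DNA replication genes moved in the same direction with smaller steps. All 30 tested members had negative fold changes, from -2.14 to -0.25, the median was -0.95, and 16 passed, against a background of 5.67% falling. Tk1, the thymidine kinase of S phase, stood at 10.58, 10.66 and 10.72 at 24 h and at 8.31, 8.66, 7.83 and 9.23 at 48 h. That is a log2 change of -2.14 (SE 0.34, adjusted p = 0.0017). The 24 h arrays of Tk1 lie within 0.14 of one another while the 48 h arrays span 1.40. Cdc6, which loads the replicative helicase, changed by -1.72 (SE 0.32, adjusted p = 0.00384), the helicase subunit Mcm3 by -1.39 (SE 0.26, adjusted p = 0.00409) and the initiation factor Mcm10 by -1.48 (SE 0.29, adjusted p = 0.00536). The helicase subunits were not alike: Mcm7, chosen after its values were seen, differed by -0.25 (SE 0.14) and did not pass. Of the 30 genes 9 passed without the 24 h array of replicate 2, 5 without replicate 3 at 24 h and 10 without replicate 3 at 48 h.

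Promoters of mitotic genes are known for a CCAAT box, bound by the NF-Y complex, and a TTTGAA element, bound by cell cycle repressor complexes. RefSeq promoter windows (assembly GRCm38.p6, 250 bases before the annotated start) were found for 26 of the 30 mitosis genes, and both strands were searched for the letters. CCAAT occurred in 21 of 26 genes (80.8%), against 37.5% of all 27025 genes with a window, and TTTGAA in 9 of 26 (34.6%) against 18.3%. A match describes letters only; binding was not measured. The windows of 3 genes with several copies are printed because they show how the boxes are spaced. Capitals mark CCAAT or its reverse complement, the sequence runs 5′ to 3′ towards the start of transcription, and the genes were chosen after their matches were seen. Top2a (chr11:99024190-99024439, minus strand) encodes the DNA topoisomerase that untangles chromosomes, Cdk1 (chr10:69352913-69353162, minus strand) the kinase that drives entry into mitosis, and Ccnb2 (chr9:70421555-70421804, minus strand) its cyclin partner.
Top2a: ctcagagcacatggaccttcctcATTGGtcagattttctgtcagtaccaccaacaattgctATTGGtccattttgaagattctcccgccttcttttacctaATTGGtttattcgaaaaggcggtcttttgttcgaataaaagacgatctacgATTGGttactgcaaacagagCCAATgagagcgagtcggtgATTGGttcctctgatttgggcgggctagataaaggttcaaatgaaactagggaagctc
Cdk1: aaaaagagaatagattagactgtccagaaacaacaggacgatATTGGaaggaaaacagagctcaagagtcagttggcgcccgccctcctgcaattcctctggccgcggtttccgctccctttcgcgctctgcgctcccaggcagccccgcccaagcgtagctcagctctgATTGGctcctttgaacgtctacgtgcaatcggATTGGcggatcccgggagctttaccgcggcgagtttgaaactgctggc
Ccnb2: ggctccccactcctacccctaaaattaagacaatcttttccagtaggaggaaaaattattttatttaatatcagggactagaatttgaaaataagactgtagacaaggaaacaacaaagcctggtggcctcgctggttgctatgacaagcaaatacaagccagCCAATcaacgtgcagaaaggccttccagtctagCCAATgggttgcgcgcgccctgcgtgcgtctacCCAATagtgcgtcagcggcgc
There are 6 copies in the Top2a window, 3 in that of Cdk1 and 3 in that of Ccnb2. In Ccnb2 the copies begin 87, 54 and 21 bases before the start. The log2 fold changes of these genes were -1.59 (Top2a, SE 0.24), -1.63 (Cdk1, SE 0.27) and -1.47 (Ccnb2, SE 0.30), all of which passed, and all lie near the median of the list.

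Proneural factors are basic helix-loop-helix proteins that push progenitors into neurogenesis, and several of them fell steeply. Neurog1 stood at 9.95, 10.38 and 10.76 at 24 h and at 6.21, 5.91, 6.52 and 7.35 at 48 h. The log2 change was -3.87 (SE 0.44, adjusted p = 0.000256), and every 48 h array lay more than 2 units below every 24 h array. Neurod4, another factor of this class, went from 9.66, 9.98 and 9.84 to 6.41, 7.04, 7.40 and 7.71, a change of -2.69 (SE 0.28, adjusted p = 0.000104). Neurog2, the main proneural factor of dorsal cortex, stayed abundant: it stood at 14.11 ± 0.24 (SD, n = 3) at 24 h and 12.94 ± 0.36 (SD, n = 4) at 48 h, a change of -1.17 (SE 0.25, adjusted p = 0.00764). Gadd45g, a growth arrest gene of the same cells, fell by 1.70 (SE 0.27, adjusted p = 0.00174). Neurod1, which acts later in the same series of factors, did not pass (13.38 ± 0.17 and 13.51 ± 0.30, adjusted p = 0.751). Eomes, the T-box factor that marks intermediate progenitors, was lower on all 48 h arrays than on all 24 h arrays and did not pass (log2 fold change -0.46, SE 0.17, adjusted p = 0.099). Of the 15 genes listed for intermediate progenitors and neurogenic factors, 6 fell and 0 rose, with a median of -1.05; 5.67% of all genes tested fell.

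Radial glial genes mostly moved down by amounts that did not pass. Fold changes were negative for 18 of 20 genes, with a median of -0.46. Of the 20 genes 2 passed as lower, beside 5.67% of all genes tested. Fgfr3, a receptor for fibroblast growth factors, stood at 11.92, 12.38 and 11.48 at 24 h and at 9.89, 9.71, 9.52 and 11.26 at 48 h, a log2 change of -1.83 (SE 0.44, adjusted p = 0.0163). Prom1, the apical membrane protein CD133, fell by 0.77 (SE 0.17, adjusted p = 0.010). On Fgfr3 the 48 h array of replicate 4 was the one nearest the 24 h level. The same array was the highest of its group for Pax6 (11.21, against 9.79, 10.21 and 10.11), the paired-domain factor of dorsal progenitors, and for Sox2 (13.21, against 12.15, 12.44 and 12.64). Averaged over the 20 genes it stood at 11.38, close to the 24 h arrays at 11.59, 11.54 and 11.39, while the other 48 h arrays stood at 10.60, 11.18 and 10.81. Pax6 had a log2 fold change of -1.29 (SE 0.45, adjusted p = 0.0881) and Sox2 of -0.76 (SE 0.39, adjusted p = 0.263). Without that array 6 of the 20 genes passed, 0 passed without the 24 h array of replicate 2, where Fgfr3 had an adjusted p of 0.086 and Prom1 of 0.0509, and 1 passed without the 24 h array of replicate 3.

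The Notch pathway keeps some progenitors from differentiating, with Delta-like ligands on one cell and receptors and Hes or Hey targets in the other. Of 18 tested genes 4 fell and 0 rose, with a median of -0.38, where 5.67% of all genes fell. Notch1, the receptor, went from 12.25 ± 0.06 (SD, n = 3) to 11.30 ± 0.23 (SD, n = 4), a log2 change of -0.95 (SE 0.20, adjusted p = 0.00702), and it passed in every alternative fit. Nrarp, an inhibitor that Notch induces, fell by 1.15 (SE 0.29, adjusted p = 0.0218), Mfng, a sugar transferase that tunes the receptor, by 1.12 (SE 0.29, adjusted p = 0.0239), and the target Hey1 by 1.25 (SE 0.36, adjusted p = 0.0405). The calls of Nrarp, Mfng and Hey1 were each lost when any 1 of the 24 h arrays, or 1 of several 48 h arrays, was left out, with adjusted p-values up to 0.0894, 0.087 and 0.124. Without 1 of the 3 arrays at 24 h, or without replicate 2 at 48 h, 1 of the 18 genes passed, and 2 passed without replicate 1 or replicate 3 at 48 h.

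Interferon-induced genes gave the largest falls. These genes are switched on by type I interferon and by sensors of foreign nucleic acid inside the cell, and they restrict viruses and present antigens. Of 20 listed genes 15 were tested, all had negative fold changes, 8 passed and the median was -2.44, beside 5.67% of all genes tested that fell. Means lay above 4 at both times for 9 of the 15. Usp18, a protease that removes the ubiquitin-like protein ISG15 and damps interferon signalling, stood at 9.29, 9.13 and 10.84 at 24 h and at 7.22, 2.42, 4.49 and 4.02 at 48 h. That is a log2 change of -5.21 (SE 0.85, adjusted p = 0.00194). The 48 h array of replicate 1 kept more of this transcript than the others. Bst2, the tethering protein tetherin that holds budding virus at the cell surface, stood at 8.43, 7.75 and 9.55 at 24 h and was dim on all 48 h arrays (2.58, 3.10, 2.67 and 2.69), at least 23.8-fold lower against the dim level (adjusted p = 7.07e-05). Such bounds take the mean of the bright group over the higher of 4 and each dim array's own value. Rtp4 was at least 13.7-fold lower by the same measure (adjusted p = 8.12e-05). On all 3 of these genes replicate 3 was the highest 24 h array, and the list averaged 8.47, 7.83 and 9.35 at 24 h against 6.36, 5.37, 5.66 and 5.55 at 48 h. That same 24 h array carried the most Hbb-y and Ttr, whose part in the interferon values was not tested. Without it 7 of the 15 genes passed, and over all alternatives between 7 and 11 did.

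Other genes of the response, named by the size of their change, fell alongside. Gbp3, a guanylate-binding GTPase, went from 9.54 ± 0.89 to 4.47 ± 0.88 (log2 fold change -5.07, SE 0.59, adjusted p = 0.000268), and the immunity-related GTPase Irgm1 from 8.56 ± 0.87 to 4.33 ± 0.50 (-4.23, SE 0.42, adjusted p = 8.55e-05). The antiviral synthetase-like gene Oasl2 fell by 4.93 (SE 0.58), the RNA sensor Ifih1 by 3.85 (SE 0.57), Ifi27 by 3.74 (SE 0.57), the membrane protein Ifitm3, which blocks viral fusion, by 3.66 (SE 0.54), and the ADP-ribosyltransferases Parp12 and Parp9 by 3.62 (SE 0.52) and 3.46 (SE 0.44). Irf9, the DNA-binding subunit of the interferon-activated complex, fell by 2.11 (SE 0.30, adjusted p = 0.000777). Levels of Ifitm3 were high at both times, at 12.60, 12.16 and 13.20 and then 8.84, 9.28, 9.15 and 8.71, so it was measured well above the dim level throughout. Eif2ak2, the double-stranded RNA kinase PKR, was dim on all 48 h arrays and at least 10.2-fold lower (adjusted p = 1.94e-06). Ifi35 rested on fewer arrays: it stood at 7.21 on the 48 h array of replicate 1 and at 3.32, 3.62 and 3.03 on the others. Its change of -5.00 (SE 1.35, adjusted p = 0.0286) did not pass when any single Fezf2GFP array other than that one was left out (adjusted p up to 0.118).

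The core of the interferon-stimulated response element, GAAA followed after any 2 bases by another GAAA, was sought on both strands of the same windows. It occurred in 4 of 13 list genes with a window (30.8%) and in 3.46% of all genes. Bst2 (chr8:71537473-71537722, minus strand) and B2m (chr2:122147437-122147686, plus strand), the invariant subunit of class I histocompatibility proteins, are printed with the match in capitals, both chosen after their matches were seen. In Bst2 a pair of overlapping matches forms 1 run.
Bst2: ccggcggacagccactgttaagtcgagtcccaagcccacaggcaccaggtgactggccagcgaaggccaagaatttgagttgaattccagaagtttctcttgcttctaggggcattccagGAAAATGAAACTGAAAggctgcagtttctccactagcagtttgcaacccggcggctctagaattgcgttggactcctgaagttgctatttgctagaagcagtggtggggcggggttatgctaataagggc
B2m: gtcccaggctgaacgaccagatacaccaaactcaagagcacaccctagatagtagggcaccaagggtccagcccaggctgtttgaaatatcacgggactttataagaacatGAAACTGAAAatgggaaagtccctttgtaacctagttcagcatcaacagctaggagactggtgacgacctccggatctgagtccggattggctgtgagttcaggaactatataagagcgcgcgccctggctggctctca
The Bst2 matches begin 130 and 124 bases before the start and the B2m match 139 bases before it. B2m had a log2 fold change of -2.44 (SE 0.44), which passed; with CtrlGFP it was -0.40, and the difference between the vectors did not pass (adjusted p = 0.613). No match in a window says only that these letters are not there.

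Of 24 tested genes of neuronal cytoskeleton and RNA binding 8 rose and 0 fell, with a median of 0.59, beside 6.38% of all genes tested that rose; 22 of 24 fold changes were positive. Mapt, the microtubule protein tau of axons, stood at 12.39, 11.38 and 11.42 at 24 h and at 13.80, 13.52, 13.04 and 13.68 at 48 h, a log2 change of 1.78 (SE 0.31, adjusted p = 0.00261). Stmn4, a stathmin that regulates microtubule turnover, went from 9.88, 7.92 and 8.60 to 10.83, 11.12, 11.49 and 10.63 (2.22, SE 0.39, adjusted p = 0.00292). For both genes the 24 h array of replicate 1, which also had the highest GABAergic signal, was the 24 h array nearest to the 48 h level. Stmn3 rose by 0.79 (SE 0.16, adjusted p = 0.00574) and Crmp1, which relays semaphorin signals to the cytoskeleton, by 0.86 (SE 0.19, adjusted p = 0.0113). Dcx, the doublecortin of migrating neurons, was higher on every 48 h array than on any 24 h array and did not pass (13.66 ± 0.15 and 14.08 ± 0.15, adjusted p = 0.250). Without the 24 h array of replicate 2, 4 of the 24 genes passed, 3 without replicate 3 at 24 h (where Crmp1 had an adjusted p of 0.0724), 5 without replicate 2 at 48 h and 5 without replicate 2 of the CtrlGFP arrays at 24 h.

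All 20 tested genes of synaptic vesicle release had positive fold changes, 7 rose, beside 6.38% of all genes tested, and the median was 0.99. Sv2a, a vesicle membrane glycoprotein, stood at 8.34, 7.20 and 7.27 at 24 h and at 10.10, 9.07, 9.78 and 10.05 at 48 h, a log2 change of 2.15 (SE 0.30, adjusted p = 0.000806). Vamp2, the vesicle SNARE, rose by 1.50 (SE 0.21, adjusted p = 0.000662), Rims1, a scaffold of the active zone, by 1.99 (SE 0.43, adjusted p = 0.00861), and Cplx1, which clamps SNARE complexes, by 1.45 (SE 0.31, adjusted p = 0.00814). Averaged over the 20 genes, the 24 h arrays stood at 8.97, 8.52 and 8.53 and the 48 h arrays between 9.57 and 9.78, so the groups did not overlap. Without the 24 h array of replicate 2, 3 of the 20 genes passed, and Cplx1 had an adjusted p of 0.052.

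On the receiving side, 6 of 15 tested glutamate receptor genes and partners rose and 0 fell, with a median of 1.41; of all genes tested 6.38% rose. Gria3, an AMPA receptor subunit, stood at 8.77, 8.38 and 8.69 at 24 h and at 11.51, 10.81, 10.86 and 11.58 at 48 h, a log2 change of 2.58 (SE 0.26, adjusted p = 0.000104). The AMPA subunit Gria2 rose by 1.41 (SE 0.35, adjusted p = 0.018), and Shisa6, an auxiliary AMPA receptor protein, by 2.29 (SE 0.42, adjusted p = 0.00392). Grik5, a kainate receptor subunit, stood near the dim level at 24 h (4.67, 3.78 and 3.27) and at 6.34, 4.63, 5.76 and 5.70 at 48 h, with overlap between the times (1.70, SE 0.43, adjusted p = 0.0207). Gria4, another AMPA subunit chosen after its values were seen, differed by 0.10 (SE 0.25) and did not pass. Only 2 of the 15 genes passed without replicate 2 or replicate 3 at 24 h, and 3 without replicate 3 at 48 h. Without these 24 h arrays Gria2 had adjusted p-values of 0.0664 and 0.0724, and Grik5 of 0.0826 and 0.117.

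For the inhibitory receptors 2 of 7 tested genes rose (6.38% of all genes). Gabra2, an alpha subunit of the GABA-A receptor, had the second-largest rise among genes above the dim level at both times, from 8.40, 5.71 and 6.54 at 24 h to 11.10, 11.02, 10.32 and 10.34 at 48 h. Its log2 change was 3.81 (SE 0.55, adjusted p = 0.000913), and 24 h replicate 1, the array with the most Gad1, was the highest of its group. Gabrb2, a beta subunit, rose by 1.79 (SE 0.47, adjusted p = 0.025), a call that was lost without replicate 2 (adjusted p = 0.119) or replicate 3 (0.0893) at 24 h and without replicate 1 (0.0606) or replicate 4 (0.0541) at 48 h. Without replicate 2 or replicate 3 at 24 h, or replicate 4 at 48 h, 1 of the 7 genes passed.

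Voltage-gated channels give neurons their firing properties, and 7 of the 18 tested rose while 0 fell, with a median of 1.01 (6.38% of all genes rose). Scn3b, a beta subunit of sodium channels, went from 9.27, 7.82 and 7.96 to 10.97, 11.01, 10.89 and 10.44, a log2 change of 2.48 (SE 0.29, adjusted p = 0.000262). Cacna1b, the pore of N-type calcium channels that trigger release, stood at 8.19, 6.47 and 6.95 at 24 h and at 10.29, 9.83, 10.36 and 8.67 at 48 h (2.59, SE 0.43, adjusted p = 0.00226). Kcnq3, a subunit of the M-current potassium channel, rose by 1.53 (SE 0.21, adjusted p = 0.000719). The potassium channel Kcna2 was dim on all 24 h arrays and at least 1.63-fold higher at 48 h (adjusted p = 0.00372). Abcc8, the sulfonylurea receptor that regulates ATP-sensitive potassium channels, was outside the list and had the largest rise of all genes with means above 4 at both times. It stood at 4.77, 4.41 and 4.36 at 24 h and at 8.72, 8.38, 8.73 and 7.75 at 48 h (3.88, SE 0.27, adjusted p = 7.78e-06).

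**Figure D2:**
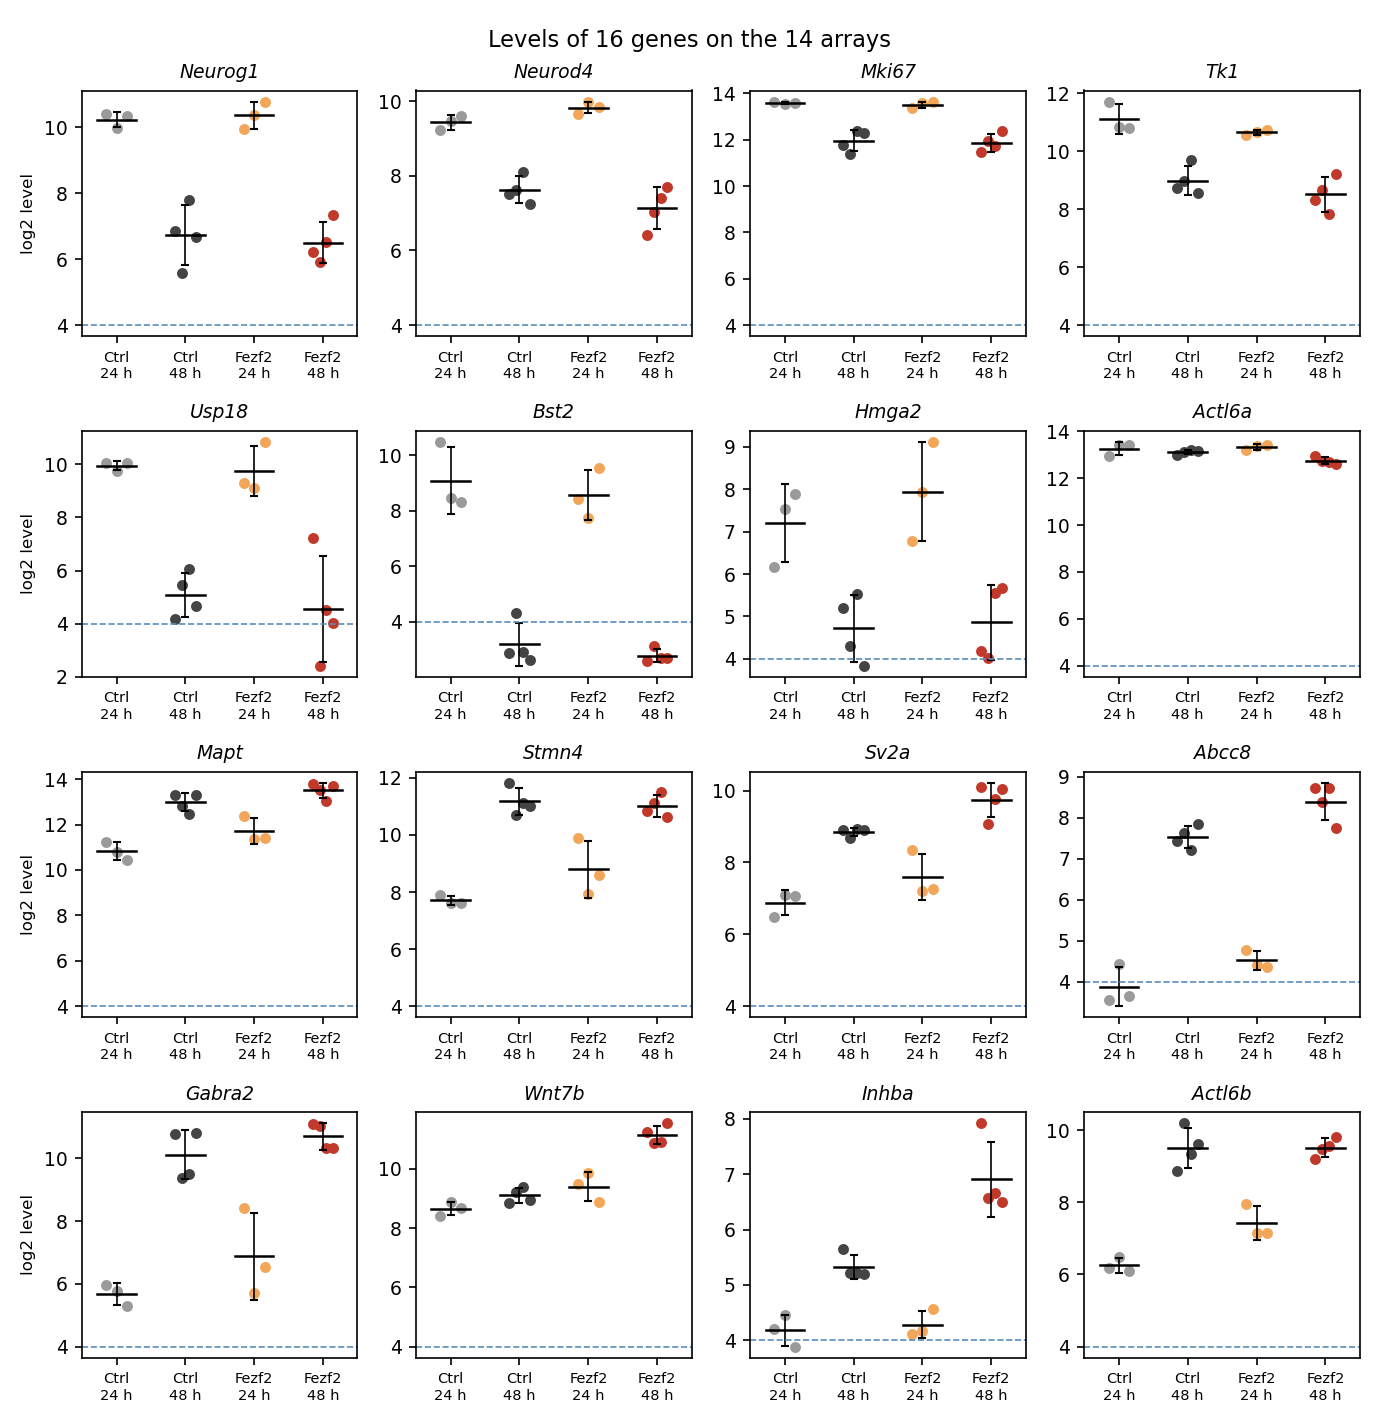
Log2 level (y axes, which do not start at 0 and differ between panels) of 16 genes on the 14 arrays, by vector and time. Points are arrays, bars and whiskers are the mean and SD, and the dashed line is the dim level of 4 where it falls within the axis. Neurog1, Mki67, Usp18 and Bst2 are lower at 48 h with either vector, Sv2a and Abcc8 are higher with either, and Wnt7b rises from 9.40 to 11.13 with Fezf2GFP beside 8.65 and 9.10 with CtrlGFP. For Wnt7b the difference between the vectors in the change over time did not pass.

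Of 26 tested axon guidance receptors and ligands 7 rose and 1 fell, with a median of 0.49, beside 6.38% and 5.67% of all genes. Sema3c, a secreted semaphorin, stood at 11.10, 11.25 and 11.09 at 24 h and at 13.39, 13.26, 12.96 and 13.69 at 48 h, a log2 change of 2.18 (SE 0.37, adjusted p = 0.00243). Flrt2, a membrane protein that repels neurons carrying Unc5 receptors, rose by 1.49 (SE 0.28, adjusted p = 0.00418). The netrin receptor Unc5b rose by 0.75 (SE 0.16, adjusted p = 0.00765). Sema3d, another secreted semaphorin, went the other way, from 4.57, 4.21 and 4.66 to dim levels on all 48 h arrays, at least 1.40-fold lower (adjusted p = 0.00208). Among ephrins and their receptors 3 of 14 rose: the receptor Ephb1 from 9.46, 7.84 and 7.96 to 10.83, 11.12, 11.11 and 10.95 (2.58, SE 0.38, adjusted p = 0.00103), and the ligands Efna3 by 1.06 (SE 0.22, adjusted p = 0.00794) and Efnb3 by 0.90 (SE 0.27, adjusted p = 0.0472). Without the 24 h array of replicate 3, 3 of the 26 guidance genes rose, the adjusted p of Unc5b was 0.0512 and that of Efnb3 0.215. Without replicate 4 at 48 h, 2 ephrin genes rose and 1 fell. Without the 24 h array of replicate 2, 1 of the 14 ephrin genes rose, with Efna3 at 0.0522 and Efnb3 at 0.119. Efnb3 passed in 9 of 26 alternative fits.

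Among subtype genes of projection neurons, the corticospinal and subcerebral genes that passed showed no shared direction. Of 14 tested corticospinal and subcerebral genes 1 rose and 1 fell, with a median of 0.38, which is near the background of 6.38% and 5.67% and no result about the list. Crim1, a membrane regulator of growth factors found in corticospinal neurons, went from 8.04, 8.06 and 6.99 to 8.94, 8.73, 9.41 and 9.69, a log2 change of 1.50 (SE 0.40, adjusted p = 0.0257). The homeobox factor Otx1 went from 8.79, 8.61 and 8.23 to 6.93, 7.23, 7.13 and 7.87 (-1.26, SE 0.27, adjusted p = 0.0096). Bcl11b, which encodes CTIP2 and acts downstream of Fezf2 in subcerebral neurons, was among the most abundant of these factors at both times and did not pass: it stood at 13.48, 13.50 and 13.57 at 24 h and at 14.04, 13.78, 14.29 and 14.21 at 48 h (0.56, SE 0.31, adjusted p = 0.305). Tbr1, a T-box factor of deep-layer neurons, overlapped between the times (10.75 ± 0.39 and 11.83 ± 0.76, adjusted p = 0.104) and had an adjusted p of 0.0218 without the 48 h array of replicate 1. Leaving out a single array gave 2 rises (without Fezf2GFP replicate 1 at 24 h), 3 (without CtrlGFP replicate 2 at 48 h) or 4 (without CtrlGFP replicate 1 at 48 h). The call of Crim1, and with it every rise on the list, ended without replicate 3 at 24 h (adjusted p = 0.143), replicate 3 at 48 h (0.0658) or replicate 4 at 48 h (0.0576).

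Of 11 tested corticothalamic and deep-layer genes 2 rose and 1 fell, with 6.38% and 5.67% as the shares over all genes. Wnt7b, a Wnt ligand of deep layers, stood at 9.47, 9.84 and 8.88 at 24 h and at 11.23, 10.85, 10.92 and 11.54 at 48 h, a log2 change of 1.74 (SE 0.24, adjusted p = 0.000777). The neurotensin receptor Ntsr1 (1.11, SE 0.32, adjusted p = 0.0383) and the nuclear receptor Nr4a2 (-0.88, SE 0.26, adjusted p = 0.0474) passed in 15 and 11 of 26 alternative fits. Without replicate 2 or replicate 3 at 24 h, or replicate 4 at 48 h, 1 of the 11 genes rose, and 3 rose without replicate 1 at 48 h. The fall of Nr4a2 was lost without any 1 of the 24 h arrays (adjusted p up to 0.168) or replicates 1, 2 or 3 at 48 h, and also without any 1 of the CtrlGFP arrays at 24 h or CtrlGFP replicate 3 at 48 h. Without CtrlGFP replicate 2 or replicate 3 at 24 h, or replicate 3 at 48 h, 1 gene rose. Among 20 callosal and upper-layer genes 4 rose and 0 fell, with a median of 0.18. Inhba, a subunit of activins, went from 4.11, 4.16 and 4.56 to 7.92, 6.57, 6.65 and 6.50 (2.63, SE 0.31, adjusted p = 0.000262). The POU-domain factor Pou3f2 rose by 0.85 (SE 0.20, adjusted p = 0.0143), the netrin and FLRT receptor Unc5d by 1.18 (SE 0.19, adjusted p = 0.00201), and Dkk3, a secreted relative of Wnt inhibitors, by 1.60 (SE 0.38, adjusted p = 0.0149). The call of Pou3f2 ended without the 24 h array of replicate 1 (adjusted p = 0.0685), and that of Dkk3 without replicate 2 (0.0699) or replicate 3 (0.0866) at 24 h. Neurod2, a factor of cortical excitatory neurons, rose by 0.72 (SE 0.20, adjusted p = 0.0372) and passed in 17 of 26 alternative fits; its adjusted p was 0.134 without the 24 h array of replicate 3.

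Calretinin, the calcium-binding protein encoded by Calb2, was dim on all 24 h arrays (3.59, 2.31 and 2.88) and stood at 5.64, 8.13, 7.45 and 8.52 at 48 h. It was at least 10.8-fold higher (adjusted p = 0.000368), the largest bound among rising genes dim at 24 h. Calb2 was listed for Cajal-Retzius cells, and other markers of that list did not move with it: Ebf3, a transcription factor, was at least 2.57-fold lower and dim on all 48 h arrays (adjusted p = 0.00545), Trp73, Lhx1 and Lhx5 were dim on all 7 arrays, and Reln, which encodes reelin, stood at 9.9 to 10.8 at 24 h and at 10.7 to 11.6 at 48 h without passing. Of 6 glial genes tested 1 rose, beside 6.38% of all genes tested. It was the folate enzyme gene Aldh1l1, which is also used as an astrocyte marker, with a log2 change of 1.38 (SE 0.25, adjusted p = 0.00351). Of the 6 genes 2 rose without Fezf2GFP replicate 1 at 24 h or without CtrlGFP replicate 3 or 4 at 48 h. Olig1, a factor of oligodendrocyte precursors and of some progenitors, stood at 6.09, 3.75 and 3.69 at 24 h and at 7.18, 7.30, 6.10 and 6.36 at 48 h, above every 24 h array, and did not pass (2.23, SE 0.72, adjusted p = 0.0629). Mbp, a myelin protein gene, was likewise without overlap and did not pass (0.69, SE 0.23, adjusted p = 0.0725), while Olig2, Aqp4 and Bcas1 overlapped between the times. Sox10, Pdgfra, Cspg4, Gfap and S100b were dim on all 7 arrays. The log2 summed level of the 11 glial markers measured was 9.02 to 9.85 at 24 h and 10.36 to 10.59 at 48 h, and the part of glial cells in the other results was not tested.

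The other largest rises came from genes of several kinds. Parm1, a mucin-like membrane protein, went from 8.25, 6.53 and 7.07 to 10.66, 10.61, 10.56 and 10.80, a log2 change of 3.37 (SE 0.35, adjusted p = 0.000104). Rspo3, a secreted enhancer of Wnt signalling, stood at 6.94, 6.42 and 6.18 at 24 h and at 9.86, 9.40, 9.70 and 9.85 at 48 h (3.19, SE 0.21, adjusted p = 5.01e-06). Adcy2, an adenylyl cyclase, went from 7.80, 7.34 and 7.81 to 10.46, 11.06, 11.08 and 10.79 (3.19, SE 0.38, adjusted p = 0.000272). In all 3 genes the 48 h arrays were at least 2 units above every 24 h array. Camk4, a calcium-dependent kinase of the nucleus, rose by 3.36 (SE 0.59), Dlg2, the postsynaptic scaffold PSD-93, by 3.19 (SE 0.46), the lipid-binding protein Osbpl6 by 3.27 (SE 0.52) and the zinc finger gene Zfp804a by 3.15 (SE 0.55). Ccdc184, Sobp and Tafa2 rose by 3.32 (SE 0.42), 3.10 (SE 0.61) and 3.05 (SE 0.56). Among genes dim on all 24 h arrays, Vav3, a signalling adaptor and exchange factor, was at least 6.16-fold higher at 48 h (adjusted p = 8.5e-05) and Sh2d3c at least 2.38-fold (adjusted p = 0.000262).

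Several large falls concerned neither division nor interferon. Cpxm2, a secreted carboxypeptidase-like protein, went from 8.80, 7.46 and 7.89 to 4.22, 4.22, 4.21 and 5.10, a log2 change of -3.61 (SE 0.30, adjusted p = 3.26e-05). The homeobox gene Uncx, which is better known from the somites and midbrain, stood at 7.79, 7.49 and 7.93 at 24 h and at 3.11, 3.10, 5.34 and 5.86 at 48 h (-3.39, SE 0.55, adjusted p = 0.00187). Ghr, the growth hormone receptor, was dim on all 48 h arrays and at least 4.98-fold lower (adjusted p = 9.26e-05). Wls, the escort protein for Wnt secretion, went from 8.30, 7.82 and 7.40 to 4.38, 4.05, 4.51 and 7.26 (-2.79, SE 0.58, adjusted p = 0.00751). Replicate 4 stood apart from the other 48 h arrays on Wls, as it did on Fgfr3.

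Among neuronal splicing regulators 6 of 15 rose and 0 fell (6.38% and 5.67% of all genes). Fold changes were positive for 9 genes and negative for 6, down to -1.47, with a median of 0.52. Rbfox1, a splicing factor of mature neurons, went from 10.03 ± 0.03 (SD, n = 3) to 12.79, 12.45, 12.53 and 11.83, a log2 change of 2.38 (SE 0.32, adjusted p = 0.000659). Khdrbs3 rose by 1.18 (SE 0.21, adjusted p = 0.00278), and Celf5 and Celf6, of a family of RNA-binding proteins, by 1.43 (SE 0.28, adjusted p = 0.00497) and 2.04 (SE 0.37, adjusted p = 0.00364). The BAF chromatin remodeller is known to swap subunits as progenitors become neurons. Its neuronal actin-like subunit Actl6b went from 7.96, 7.15 and 7.13 to 9.19, 9.46, 9.57 and 9.82 (2.10, SE 0.29, adjusted p = 0.000804). The progenitor counterpart Actl6a went from 13.19, 13.38 and 13.44 to 12.95, 12.75, 12.70 and 12.63 (-0.58, SE 0.16, adjusted p = 0.0285), a small change without overlap. Smarcd3 rose by 1.16 (SE 0.30, adjusted p = 0.0225), and Ss18, the progenitor counterpart of another subunit, had -1.20 (SE 0.34, adjusted p = 0.0359). The 1 other probe set of Ss18 that met the filter on level changed in the opposite direction. Of the 19 BAF genes tested, 2 rose and 2 fell; 3 rose without replicate 1 at 48 h, and 1 fell without replicate 1 at 24 h or replicate 1 or 4 at 48 h. Calls of Actl6a, Smarcd3 and Ss18 ended without replicate 2 (adjusted p of 0.110, 0.0848 and 0.123) or replicate 3 (0.127, 0.0952 and 0.0877) at 24 h, which left 1 rise and no fall. That of Ss18 also ended without replicate 1 at 24 h or replicate 1, 2 or 3 at 48 h, that of Actl6a without replicate 2, 3 or 4 at 48 h, and that of Smarcd3 without replicate 2 or 3 at 48 h. No BAF gene fell without replicate 2 or 3 at 48 h, and 1 rose without the latter.

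Hmga2, a chromatin protein of young progenitors and a known let-7 target, went from 6.77, 7.93 and 9.11 to 4.20, 4.01, 5.56 and 5.68, a log2 change of -3.08 (SE 0.63, adjusted p = 0.00685). Igf2bp1, an RNA-binding protein of the same programme, fell by 1.54 (SE 0.36, adjusted p = 0.0129), a call lost without the 24 h array of replicate 2 (0.0668). Both belong to a list of Lin28 and let-7 genes of which 4 were tested, 2 fell and 0 rose, where 5.67% of all genes tested fell. Among 23 chromatin and DNA methylation enzymes 1 rose and 1 fell. That is near the 6.38% and 5.67% of all genes tested and no result about the list. The neuronal remodeller Chd5 rose from 6.16 ± 0.96 to 9.17 ± 0.39 (3.01, SE 0.36, adjusted p = 0.000303). The deacetylase Hdac1 changed by -0.61 (SE 0.16, adjusted p = 0.023). Without replicate 1 at 24 h, 2 of these enzymes rose, and 3 fell without CtrlGFP replicate 2 at 48 h. The call of Hdac1 ended without replicate 2 (adjusted p = 0.0787) or replicate 3 (0.108) at 24 h and without replicate 1 (0.0532) or replicate 3 (0.0596) at 48 h.

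Of 15 tested glycolysis genes 2 rose and 4 fell, against 6.38% and 5.67% of all genes, and 9 did not pass. Eno2, the neuronal enolase, went from 8.74, 7.73 and 7.97 to 9.94, 10.01, 10.38 and 10.51, a log2 change of 2.06 (SE 0.34, adjusted p = 0.00203). Hk2, the hexokinase of growing cells, fell by 1.45 (SE 0.31, adjusted p = 0.00848), Ldha, which makes lactate, by 0.98 (SE 0.19, adjusted p = 0.00473), and Pdk1, which keeps pyruvate from the mitochondrion, by 1.03 (SE 0.22, adjusted p = 0.00926). Without replicate 3 at 24 h, 1 glycolysis gene rose and 2 fell, and Pdk1 had an adjusted p of 0.0579; without replicate 2 at 24 h, 1 rose. Of 29 tested genes of the mitochondrial respiratory chain and 22 of the cytosolic ribosome none passed in limma's test or in any of the 26 alternatives, with medians of -0.10 and -0.13. On the respiratory list the 48 h array of replicate 1 was low (mean 12.28, against 12.99 to 13.22 on the others). Sterol and fatty acid synthesis had positive fold changes for 20 of 21 genes, a median of 0.24 and 3 rises, of which Acaca, the first enzyme of fatty acid synthesis, was the one of smallest p (0.86, SE 0.19, adjusted p = 0.0112). With replicate 2 at 24 h left out none of the sterol and fatty acid genes passed, and 1 did without replicate 3 at 24 h.

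Of 19 Wnt pathway genes 2 rose (Wnt7b and Dkk3) and 4 fell, where 6.38% of all genes tested rose and 5.67% fell, among them Wls and the receptor Fzd9 (-1.37, SE 0.36, adjusted p = 0.0252). The number falling was 1 without replicate 2 at 24 h or without replicate 1 or replicate 2 at 48 h, and 2 without replicate 1 or replicate 3 at 24 h, replicate 3 at 48 h or replicate 2 of CtrlGFP at 24 h. The number rising was 1 without replicate 2 or replicate 3 at 24 h and 3 without replicate 2 at 48 h, and Fzd9 did not pass without replicate 1 (adjusted p = 0.112) or replicate 2 (0.108) at 24 h, or replicate 1 (0.0667) or replicate 2 (0.0538) at 48 h. Of 10 FGF and MAPK feedback genes 1 fell, Fgfr3; none fell without the 24 h array of replicate 2, and 2 fell without replicate 4 at 48 h or without CtrlGFP replicate 2 at 48 h. Of 11 p53 targets 1 rose, Perp, dim on all 24 h arrays and at least 1.41-fold higher (adjusted p = 0.0238), with adjusted p-values of 0.0539, 0.063 and 0.114 without replicates 1, 2 and 3 at 24 h and of 0.0673 and 0.0596 without replicates 2 and 3 at 48 h. None of 9 immediate early and heat shock genes passed, and 1 did without CtrlGFP replicate 1 at 24 h. Jun, an early response factor, stood at 11.87 ± 0.36 at 24 h and at 10.52 ± 0.57 at 48 h (adjusted p = 0.176).

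The control cells, taken at the same times, changed in much the same way. In the CtrlGFP arrays 605 genes rose (5.88% of the genes tested) and 689 fell (6.69%), or 12.6% in all. No array is shared between the fold changes of the 2 vectors. Both sets of calls, however, use the same variance per gene, estimated from all arrays, so they are not independent and their overlap is a description. With only the groups compared, 797 genes passed with CtrlGFP in place of 1294, and 1208 with Fezf2GFP in place of 1241. The overlap of those calls is not given here. Of the 657 genes that rose with Fezf2GFP 356 also rose with CtrlGFP, which is 54.2% of the Fezf2GFP rises and 58.8% of the CtrlGFP rises. Of the 584 that fell 401 also fell with CtrlGFP, 68.7% and 58.2% of the respective falls. Only 1 gene passed in opposite directions, the collagen gene Col9a1. Across the 10295 genes the fold changes of the vectors had a Pearson correlation of 0.77 and a Spearman correlation of 0.67, as a description over genes, which are not independent replicates. The log2 fold change of Mki67 was -1.62 with CtrlGFP beside -1.64 with Fezf2GFP. For the lists, 27 of 30 mitosis genes fell with CtrlGFP (median -1.68), 9 of 15 interferon genes (median -2.19), 8 of 20 radial glial genes (median -0.83) and 22 of 30 replication genes (median -1.06), and 12 of 20 synaptic vesicle genes rose while 1 fell (median 1.10).

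**Figure D3:**
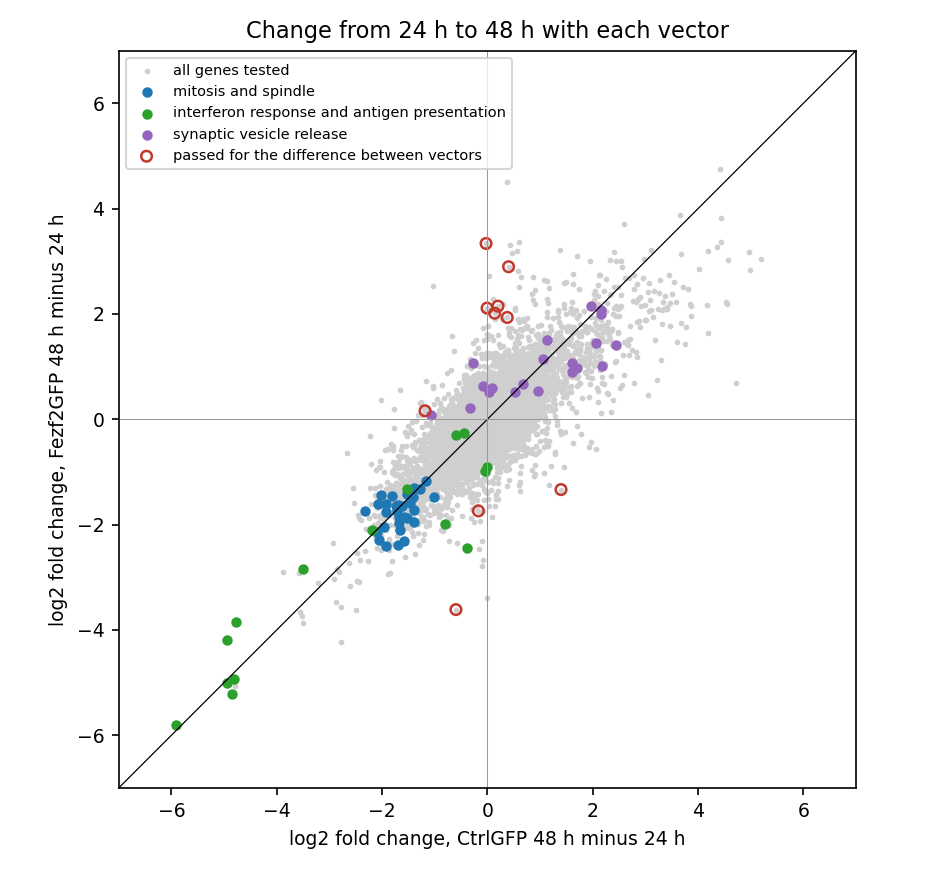
Log2 fold change from 24 h to 48 h with CtrlGFP (x axis) and with Fezf2GFP (y axis); each grey point is 1 of the 10295 genes tested, 3 lists are coloured, and the line marks equal change. Red circles mark the 10 genes that passed the test of the difference between the vectors. Mitosis genes and the interferon genes of largest change lie near the line at the lower left, the interferon gene B2m lies at -0.40 and -2.44, and 8 of the 10 circled genes lie between -0.60 and 0.40 on the x axis.

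A test of the difference between the vectors in the change over time (Fezf2GFP minus CtrlGFP) passed for 10 genes, 7 positive and 3 negative, or 0.0971% of the genes tested; at an unadjusted p under 0.05 it was 509 genes (4.94%). In an alternative fit that also modelled the replicate number, 0 genes passed. The 10 genes share little known function. Tmem117, a membrane protein, was dim on all CtrlGFP arrays and on all 24 h Fezf2GFP arrays and stood at 5.88, 5.16, 6.37 and 7.22 on the 48 h Fezf2GFP arrays (difference 3.36, adjusted p = 0.0159). It was at least 4.46-fold higher at 48 h with Fezf2GFP. Stac2, an adaptor of muscle-type calcium channels, was likewise dim at 24 h and at least 1.96-fold higher at 48 h with Fezf2GFP, beside means of 2.15 and 2.55 with CtrlGFP (difference 2.49, adjusted p = 0.0159). Cdhr1, a cadherin relative, followed the same pattern at at least 2.27-fold (difference 2.12, adjusted p = 0.0159). Tmem117, Stac2 and Cdhr1 met the filter on level only through the 48 h Fezf2GFP arrays, where they are high. Their p-values are therefore no support for a difference between the vectors. The differences of these genes use values below the dim level and are not bounds. Pappa2, a protease of insulin-like growth factor binding proteins, stood at 4.89, 4.89 and 4.41 and then 7.03, 6.46, 6.82 and 6.68 with Fezf2GFP, beside means of 4.66 and 4.80 with CtrlGFP (difference 1.88, adjusted p = 0.0159). Hmgcll1, an enzyme related to ketone body synthesis, rose by 2.15 and 0.20 with the respective vectors (difference 1.95, adjusted p = 0.0286).

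Cpxm2 fell with Fezf2GFP from a level of 8.05 ± 0.68 (SD, n = 3) that CtrlGFP cells never had: the CtrlGFP means were 4.08 and 3.48 (difference -3.02, adjusted p = 0.0159). The antiviral restriction factor gene Trim5 was at least 2.01-fold lower at 48 h with Fezf2GFP and dim on every CtrlGFP array (difference -1.57, adjusted p = 0.0286). Trim5 met the filter on level only through the 24 h Fezf2GFP arrays, so its p-value is no support, and its difference is not a bound. Col9a1, a collagen of cartilage, stood at 8.90, 8.53 and 9.63 and then 7.23, 7.66, 7.91 and 7.93 with Fezf2GFP, while the CtrlGFP means went from 6.62 to 8.02 (difference -2.73, adjusted p = 0.0159), so the vectors were close together at 48 h. The unnamed gene 2210408K08Rik rose by 1.93 with Fezf2GFP towards a level that CtrlGFP cells had at both times (difference 1.56, adjusted p = 0.037). Slc15a2, a peptide transporter, did not pass with Fezf2GFP (0.16) and fell by 1.18 with CtrlGFP (difference 1.35, adjusted p = 0.037). With Fezf2GFP the 1 other probe set of Slc15a2 that met the filter on level had the opposite sign. Without CtrlGFP replicate 2 or 3 at 24 h, CtrlGFP replicate 3 at 48 h or Fezf2GFP replicate 3 at 24 h, 0 genes passed this test; 3 passed without CtrlGFP replicate 1 at 24 h, 5 without CtrlGFP replicate 4 at 48 h, and 4 each without Fezf2GFP replicate 1 or replicate 2 at 24 h. Parm1, Adcy2 and Calb2, large rises with Fezf2GFP and small ones with CtrlGFP (0.61, 0.56 and 0.38), had differences of 2.76, 2.63 and 4.13 that did not pass (adjusted p of 0.0761, 0.129 and 0.0997). Calb2 was dim on every CtrlGFP array, so its difference also uses values below the dim level.

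**Figure D4:**
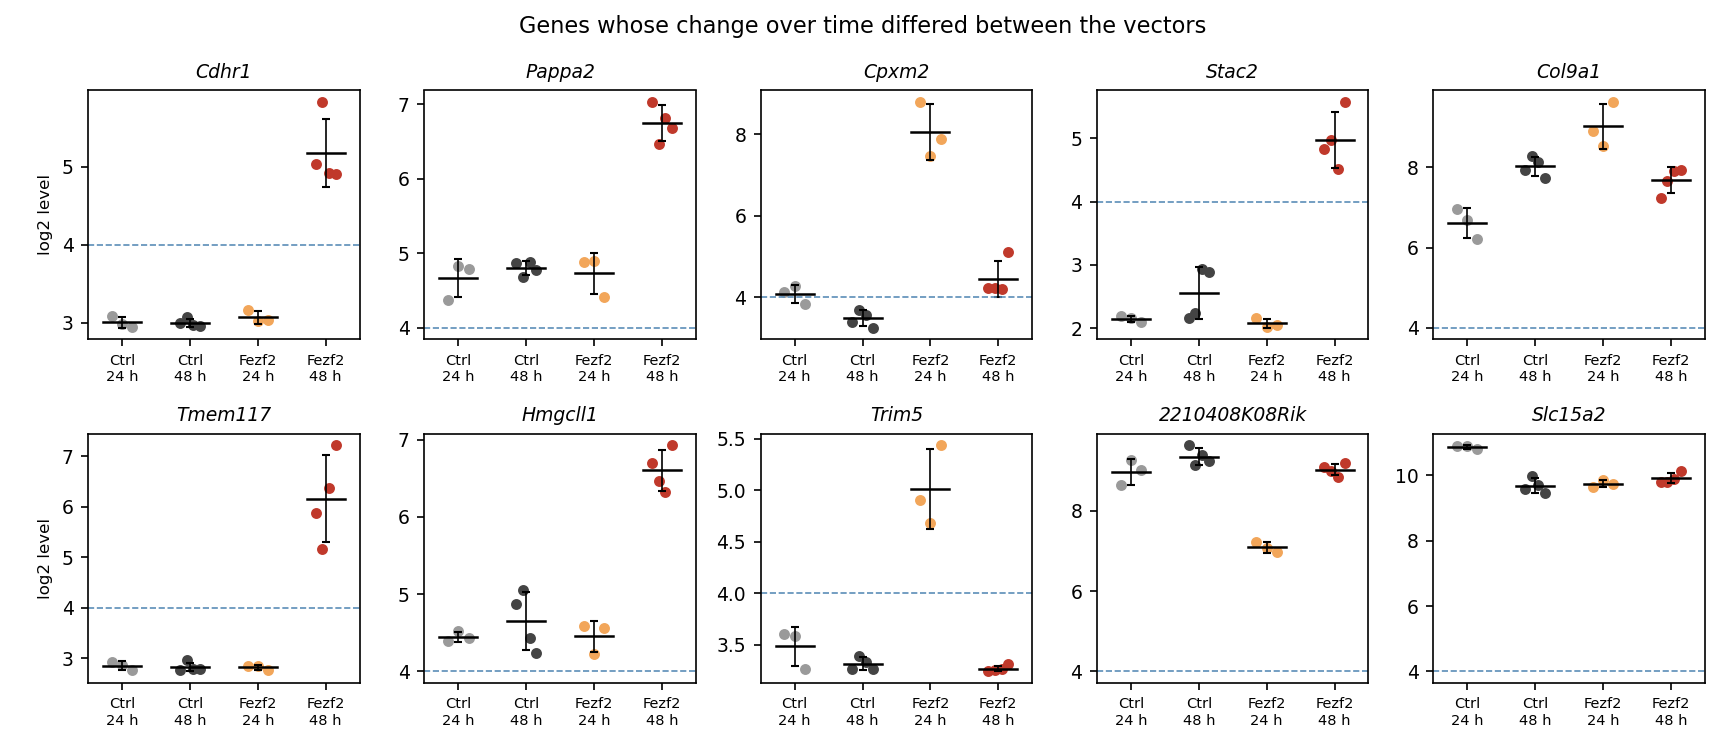
Log2 level (y axes, which do not start at 0 and differ between panels) of the 10 genes that passed the test of the difference between the vectors, on the 14 arrays by vector and time. Points are arrays, bars and whiskers are the mean and SD, and the dashed line is the dim level of 4. Tmem117, Stac2 and Cdhr1 lie above the line only on the 48 h Fezf2GFP arrays, and Cpxm2 is at 7.46 to 8.80 only on the 24 h Fezf2GFP arrays.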

How the data were processed

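RNA of FACS-purified cells went through 2 rounds of amplification by in vitro transcription and was hybridized to Affymetrix mouse arrays, per the labels' protocols. The authors deposited log2 levels made with GCRMA, per the submitters' processing notes, which name no version. Background correction, normalization and summary over probes are therefore those of the authors. The platform annotation gives 1 gene symbol for 34945 of 45037 probe sets, several for 932 and none for 9160. Each of 18193 symbols was read from its probe set of highest mean over the 14 arrays and tested if that probe set lay above 4 on at least 3 arrays, which left 10295 genes and set aside 7898. At this threshold Gm36243 and Akap1, whose third-highest values are 4.00022 and 4.00188, were just inside, and Dmrtb1 and Spr, at 3.99953 and 3.99884, just outside.

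The model, fitted with limma 3.58.1 (lmFit, eBayes) in R 4.3.3, had 1 mean for each of the 4 groups of the 14 arrays and 10 residual degrees of freedom; adjusted p-values are Benjamini-Hochberg values over all genes tested, and "passed" means at most 0.05. SE is limma's standard error. Of 693 genes on 36 lists 521 were tested. The comparison, its members and the lists were chosen with earlier results of these data known, so lists are described by counts and medians beside those of all genes and are not tested. Named genes are 11 fixed by name (1 of them is not reported here), the 12 largest rises and falls without overlap and with means above 4, the 5 of smallest p per direction that were dim at 1 time, up to 4 passing genes of smallest p per list (or the 2 of smallest p where none passed), and the 10 of smallest p for the difference between vectors; genes named outside this rule are said to have been chosen after their values were seen, or serve as cell type markers. Alternatives changed the dim filter, normalization, probe set rule, arrays used, array weights, variance prior, replicate block and gene span trend, and left out each array in turn. The fit was also run on simulated data, and the outcome of that run is not given here. Precision is limited by the number of arrays.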

Additional observations from a re-analysis of the deposited data

Results flagged for a closer look

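In some of the 143 named genes 1 Fezf2GFP array at 48 h lay far from the other 3 by Dixon's criterion. Chance meets this criterion in about 1 of 20 groups, and no cause was tested. Replicate 1 was high for Ifi35 (7.21) and Inhba (7.92) and low for the respiratory chain genes Ndufb3 (11.20) and Ndufs4 (7.20; the others lay at 11.35 to 11.88). Replicate 4 was high for Neurod1 (13.96), Cpxm2 (5.10), Sema3d (3.83) and Wls (7.26). Replicate 3 was high for Gad1 (9.55) and low for Khdrbs3 (11.08), and replicate 2 was high for Cdhr1 (5.84).

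The change over time differed between the vectors, by the test of that difference, in 10 genes. On the log2 scale the differences (Fezf2GFP minus CtrlGFP) were 3.36 for Tmem117, 2.49 for Stac2, 2.12 for Cdhr1, 1.95 for Hmgcll1, 1.88 for Pappa2, 1.56 for 2210408K08Rik, 1.35 for Slc15a2, -1.57 for Trim5, -2.73 for Col9a1 and -3.02 for Cpxm2. Tmem117, Stac2, Cdhr1 and Trim5 were dim on every CtrlGFP array and met the filter through 1 Fezf2GFP group only. Their differences use values below the dim level and are not bounds.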

How the results depend on the processing

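Of 117 named genes that passed between 24 h and 48 h with Fezf2GFP, 84 passed in every one of the 26 alternatives that tested them and 0 changed sign. Leaving out 1 array at a time gave 643 to 1433 passing genes with Fezf2GFP (317 to 746 higher, 326 to 707 lower), 911 to 1446 with CtrlGFP (433 to 751 and 455 to 731) and 0 to 12 for the difference between vectors (0 to 9 positive, 0 to 6 negative). Array weights, whose estimation did not converge, gave 3133 (1591 and 1542), 3077 (1402 and 1675) and 240 (147 and 93). With only the groups compared, CtrlGFP gave 797 (374 and 423). For the difference between vectors, a dim level of 6 gave 4 genes (2 and 2), no filter 14 (9 and 5), the gene span trend removed 6 (4 and 2), and leaving out CtrlGFP 24 h replicate 1 and CtrlGFP 48 h replicate 2 together 7 (6 and 1). Those 2 arrays had the highest medians of the 14, and CtrlGFP 24 h replicate 1 had the most Hbb-y (13.78). Without both, 1780 genes passed with Fezf2GFP (964 and 816) and 1158 with CtrlGFP (588 and 570). Genes that did not pass changed sign: Slc15a2 (-0.19 with the mean of probe sets), Neurod1 (-0.027 with array weights) and Ttr (0.83 with array weights, 0.11 with the replicate block). Without 1 array their ranges were -0.013 to 0.23 for Neurod1 and -1.80 to 1.91 for Ttr, and others that crossed 0 were Fezf2 (-0.41 to 0.11), C1qb (-0.071 to 0.29) and Slc4a1 (-0.060 to 0.54). The causes were not tested.

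Replicate numbers are shared between groups, but deviations of same-numbered Fezf2GFP arrays from their group means correlated at -0.213, -0.102 and -0.136, and those of CtrlGFP arrays at -0.399, -0.310 and 0.193, so the numbers were not taken as pairs, although Ttr was high on replicate 3 in 3 of the 4 groups (9.95 and 8.32 with Fezf2GFP, 9.38 with CtrlGFP at 48 h). With the replicate block 1055 genes passed with Fezf2GFP (566 and 489), 1026 with CtrlGFP (491 and 535) and 0 for the difference between vectors. Signal over background limits the dim genes, whose changes over time with Fezf2GFP appear here as bounds. Differences between the vectors are not bounds, and for genes dim in a group they use values below the dim level.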
